A study of Mus musculus with 16 samples.

Results

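The genes described are the semaphorins, plexins and neuropilins of the mouse, a family of guidance ligands and their receptors. The members were chosen by gene name, and they are all 31 genes so named among the 41325 in each of the 2 deposited tables: 20 semaphorins, 9 plexins and 2 neuropilins. No member was selected on its own values, but the family was put forward with earlier results from these raw counts over the 4 groups known, so the counts of members called below describe the family and lend it no support. The only other genes named after a member were 3 antisense transcripts at Plxna4 (Plxna4os1, Plxna4os2 and Plxna4os3), which had 0 counts in all 16 libraries. The cells were immortalized preadipocytes, a line of fat cell precursors that forms adipocytes in culture, from wild-type mice of the strain C57Bl6/J. Each group had 4 libraries: cells exposed to the cytokine interleukin-13 (IL-13) for 16 h and sampled at day 6 of differentiation, untreated cells at day 6, cells exposed to IL-13 for 16 h and sampled at day 0, and untreated cells at day 0. All cells shared the same genotype and strain and carried no transgene named in the labels. The labels number the libraries 1 to 4 but do not state whether each had its own culture, and p-values therefore reflect library-to-library spread that can be technical.

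Semaphorins are secreted or membrane-bound proteins with a sema domain that were first studied as repellents of growing axons. Plexins are their main receptors, and their intracellular part acts on small GTPases of the Rap and R-Ras type. Most secreted class 3 semaphorins bind a neuropilin, which has almost no signalling domain of its own and holds the ligand against a class A plexin or plexin D1, and neuropilins also bind vascular endothelial growth factors (VEGFs). In fat, members of the family are known from vessel and nerve growth, from macrophage recruitment in obese mice and, for plexin D1, from the growth of visceral fat depots.

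Library totals ran from 15253031 to 18112087 counts, and libraries of the same group always differed by more than counting error. The cell type labels were checked against marker lists by their summed level (TPM, in which the authors scaled counts to transcript length and library size). The sum of 6 adipocyte markers, Adipoq, Plin1, Fabp4, Cidec, Lipe and Pparg, was 17410 to 18150 TPM in IL-13 libraries and 17030 to 18520 TPM in untreated libraries at day 6, against 175 to 190.2 TPM and 164 to 183 TPM at day 0. The sum of 6 preadipocyte markers was 136 to 169 TPM and 152 to 191 TPM at day 6, against 943 to 1019 TPM and 940.2 to 977 TPM at day 0. The 6 were Pdgfra, Pdgfrb, Thy1, Dlk1, Ly6a and Cd34. Most of the day 6 sum was Pdgfra, at 94.8 TPM in IL-13 and 111 TPM in untreated cells, against 118 and 132 TPM at day 0. Cd34 was low throughout, at 0.554 and 0.434 TPM at day 6 against 1.27 and 0.359 TPM at day 0, and did not fall in untreated cells. Endothelial markers, listed because that cell type uses many of these receptors, summed to at most 1.38 TPM in any library, with Tie1 and Erg at 0, and macrophage markers summed to 3.69 to 14.1 TPM with Adgre1 at 0. At day 0 Csf1r averaged 2.89 TPM in IL-13 and 1.20 TPM in untreated cells, and Lyz2 3.32 and 6.09 TPM. Neural and Schwann markers summed to 51.5 to 63.1 TPM in IL-13 and 51.8 to 61.4 TPM in untreated libraries at day 0, mainly from Ncam1 and Tubb3. At day 6 they summed to 4.51 to 8.08 TPM and 7.28 to 8.285 TPM. An index of nuclear RNA (the mean log2 CPM of 24 nuclear-retained transcripts and splicing factor genes, CPM being read counts scaled to library size with trimmed mean of M values factors) was lower in IL-13 than in untreated libraries on both days. It was 5.77 ± 0.0527 in IL-13 and 6.203 ± 0.220 in untreated libraries at day 0 (SD, n = 4 each; difference -0.438, two-sided exact permutation p = 0.0286), and 5.91 ± 0.193 and 6.53 ± 0.181 at day 6 (difference -0.623, p = 0.0286 by the same exact test), which is the smallest p that 70 arrangements allow. The groups did not overlap on either day, and the calls kept and lost with this index as a covariate follow the values of each IL-13 comparison.

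The promoters of 4 members with steep or opposite changes are shown as the sequence from 250 bases before to 50 bases after the start that RefSeq gives on GRCm38.p6, with each CG dinucleotide in capitals. RefSeq promoters were found for 26 of the 31 members, in 37 windows, and not for Plxna1, Plxna4, Sema3b, Sema3f and Sema6a. Sema3g and Plxnb3 were near 0 at day 0 and well above it at day 6, and Nrp1 and Nrp2 differed in opposite directions between IL-13 and untreated cells at day 0. The Sema3g window is chr14:31217623-31217922 (plus strand), that of Plxnb3 is chrX:73756853-73757152 (plus strand), that of Nrp1 is chr8:128358823-128359122 (plus strand) and that of Nrp2 is chr1:62703067-62703366 (plus strand).
Sema3g: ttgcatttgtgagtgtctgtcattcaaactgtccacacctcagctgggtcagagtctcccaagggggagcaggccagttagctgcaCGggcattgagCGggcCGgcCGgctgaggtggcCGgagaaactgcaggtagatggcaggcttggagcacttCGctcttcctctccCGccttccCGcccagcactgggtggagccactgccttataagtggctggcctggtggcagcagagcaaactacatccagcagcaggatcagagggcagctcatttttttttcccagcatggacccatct
Plxnb3: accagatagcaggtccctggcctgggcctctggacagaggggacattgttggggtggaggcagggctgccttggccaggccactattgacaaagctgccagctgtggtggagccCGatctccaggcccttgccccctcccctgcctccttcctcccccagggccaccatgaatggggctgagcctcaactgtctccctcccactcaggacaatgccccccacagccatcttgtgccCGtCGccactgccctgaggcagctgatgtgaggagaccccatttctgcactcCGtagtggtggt
Nrp1: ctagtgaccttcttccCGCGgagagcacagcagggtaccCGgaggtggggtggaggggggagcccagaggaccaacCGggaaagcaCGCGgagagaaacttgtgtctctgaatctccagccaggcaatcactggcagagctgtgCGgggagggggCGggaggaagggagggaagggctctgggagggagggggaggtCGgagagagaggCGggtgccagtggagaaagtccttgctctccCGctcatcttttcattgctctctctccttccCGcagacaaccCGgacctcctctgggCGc
Nrp2: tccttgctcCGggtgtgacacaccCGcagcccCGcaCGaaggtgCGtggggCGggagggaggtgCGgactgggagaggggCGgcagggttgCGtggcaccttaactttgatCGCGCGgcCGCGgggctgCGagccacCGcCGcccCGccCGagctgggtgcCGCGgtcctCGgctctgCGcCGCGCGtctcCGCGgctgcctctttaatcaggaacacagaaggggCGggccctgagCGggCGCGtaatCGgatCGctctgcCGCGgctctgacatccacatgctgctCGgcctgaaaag
The windows held 8 CG dinucleotides in Sema3g, 4 in Plxnb3, 14 in Nrp1 and 37 in Nrp2, against a median of 7 (quartiles 3 and 20) over all 32544 RefSeq promoter windows of the same length. Their GC content was 58.7%, 63.7%, 64.0% and 70.7%, and the median of all windows was 53.0%. The letters TTC and GAA with 4 bases of any kind between them, the spacing preferred by Stat6, the transcription factor that IL-13 activates, were searched on both strands. They were in 1 window each of 4 members (Plxna3, Sema3a, Sema3e and Sema4f) and in 6.98% of all windows. The 4 windows printed above do not hold these letters, nor AGGTCA repeated after 1 base of any kind, the pair that nuclear receptor dimers such as Pparg with Rxra prefer, which was in 0.0399% of all windows on either strand.

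The family's makeup by TPM, the scale on which levels of different genes can be compared, differed between the days and, at day 0, with IL-13. Among the ligands at day 6, Sema3g, a secreted class 3 semaphorin that binds mainly neuropilin 2, averaged 81.0 ± 18.0 TPM in IL-13 cells and 92.0 ± 5.51 TPM in untreated cells (SD, n = 4 each). It held 56.9% ± 3.37 of the summed semaphorin TPM in IL-13 cells and 57.4% ± 1.31 in untreated cells at that time. At day 0 the highest ligand was Sema3f in IL-13 cells, with 35.7 ± 1.53 TPM, whereas in untreated cells Sema5a, at 22.7 ± 1.56 TPM, stood above Sema4c, at 17.1 ± 2.42, and Sema6d, at 15.8 ± 1.27. In untreated cells at day 0 the libraries of Sema4c, Sema6d and Sema3f overlapped in TPM, so the order among these 3 ligands is not resolved. Plxnb2, the receptor of class 4 semaphorins such as Sema4c, was the highest plexin in every group. It averaged 35.8 ± 3.16 and 37.1 ± 2.61 TPM in IL-13 and untreated cells at day 6, against 239 ± 3.41 and 267 ± 17.5 TPM in IL-13 and untreated cells at day 0. Plxna1 came next, at 29.0 ± 1.81, 35.5 ± 2.10, 69.1 ± 6.58 and 96.2 ± 11.2 TPM in the same order of groups, followed by Plxnd1, and at day 6 the untreated libraries of Plxna1 and Plxnb2 overlapped. Between the neuropilins, Nrp1 was above Nrp2 only in IL-13 cells at day 0, where it averaged 89.3 ± 10.2 TPM against 36.3 ± 2.11 TPM for Nrp2. Summed over all plexins, the level was 106 ± 5.80 TPM in IL-13 cells and 121 ± 5.77 TPM in untreated cells at day 6, and 394 ± 12.01 and 434 ± 31.1 TPM at day 0. TPM lacks the trimmed mean of M values factors, so gaps in TPM between groups can differ from those in CPM and were not tested. In CPM, Plxnb2 at day 0 averaged 580 ± 22.3 in IL-13 and 560 ± 45.5 in untreated cells (log2 fold change 0.04, SE 0.06).

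**Figure D1:**
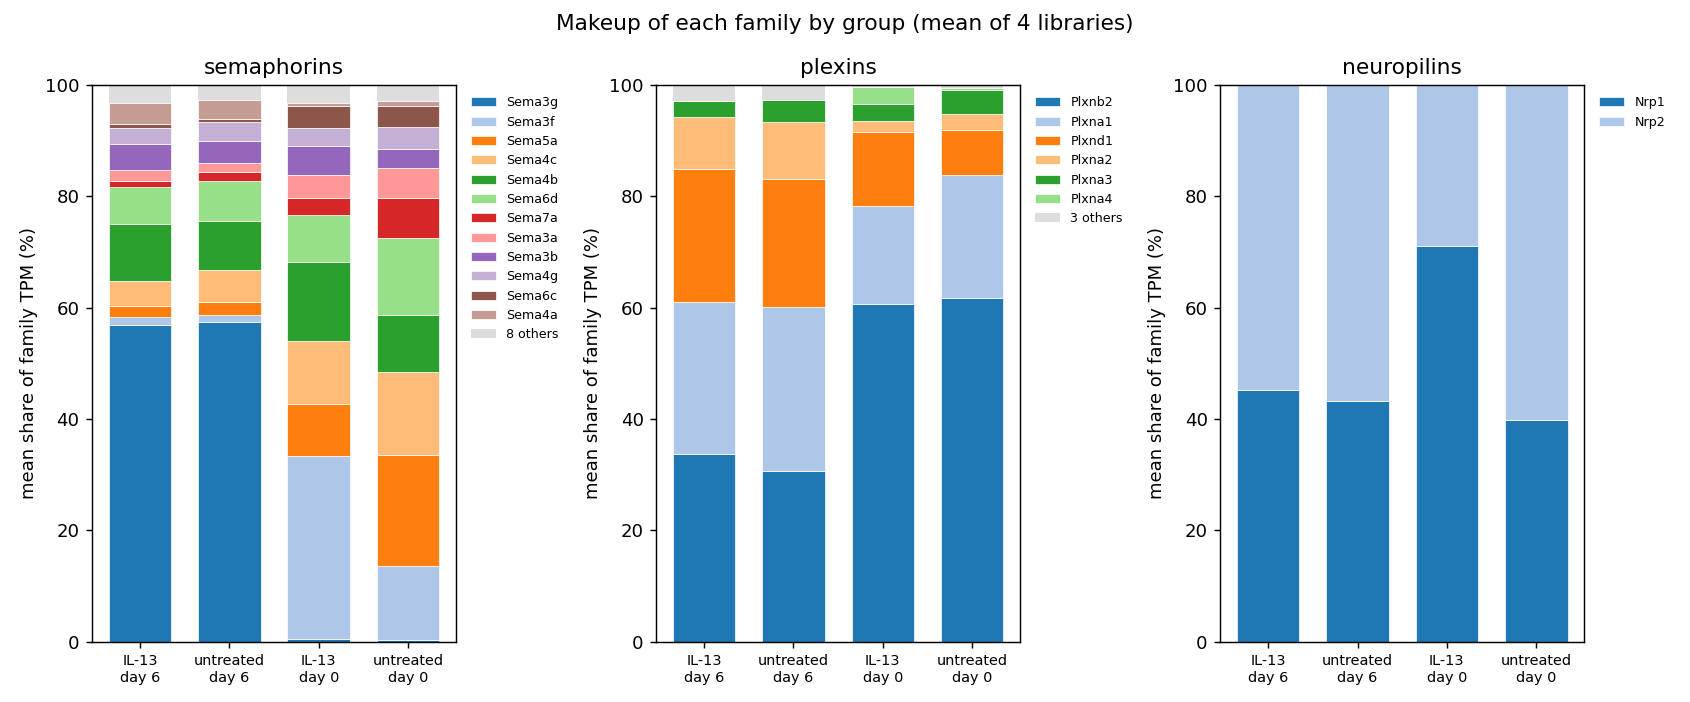
Mean share of each member in the summed TPM of its family (%, 4 libraries a group), for semaphorins, plexins and neuropilins in IL-13 and untreated cells at day 6 and at day 0. Sema3g fills 56.9% and 57.4% of the semaphorin bars at day 6, Sema3f is larger in IL-13 than in untreated cells at day 0 (32.9% and 13.3%), and Nrp1 holds 71.0% of the neuropilin sum only in IL-13 cells at day 0.

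The question at day 0 was which transcripts 16 h of IL-13 changed before differentiation. IL-13 cells had far more Plxna4, more Sema3f, Nrp1 and Plxnd1, and less Nrp2, Sema5a, Sema7a and Plxnb1 than untreated cells. Of the 26 members tested, 9 were called higher and 10 lower at an adjusted p under 0.05 (edgeR's quasi-likelihood test, Benjamini-Hochberg over all 12274 genes tested), 7 were not called, and 5 had too few counts to be tested. The share called was 73.1% of the tested members, and over all genes tested it was 47.9% (23.7% higher and 24.2% lower). Changes of 2-fold or more were found for 5 members, Plxna4, Sema3f, Sema7a, Plxnb1 and Nrp2, and for 4.24% of all genes. The median log2 fold change was -0.22 over the tested members and -0.01 over all genes. In 17 of the 19 members called, the libraries of the groups did not overlap; Sema3a and Sema4c were the other two. Groups were apart in 65.4% of the tested members and 40.4% of all genes tested, and in 89.5% of the members called and 78.5% of all genes called.

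Among the secreted ligands at day 0, Sema3f, which binds neuropilin 2 in preference to neuropilin 1, had 56.7, 63.0, 60.4 and 53.2 CPM in the IL-13 libraries. It had 20.0, 20.1, 23.7 and 21.5 CPM in the untreated libraries. Every IL-13 library was above every untreated one by more than 2-fold (log2 fold change 1.44, SE 0.07, adjusted p = 3.60e-10). Sema3b, a class 3 ligand encoded close to Sema3f on chromosome 9, stood at 8.39, 8.36, 8.25 and 9.07 CPM in IL-13 cells and at 4.30, 5.24, 5.24 and 5.68 CPM in untreated cells (log2 fold change 0.72, SE 0.11, adjusted p = 1.11e-04). Sema3c, a class 3 ligand that has been described as an adipokine in human fat, was a low transcript at 1.74, 1.65, 1.48 and 1.60 CPM with IL-13 and 0.922, 0.554, 0.921 and 1.07 CPM without it (log2 fold change 0.86, SE 0.23, adjusted p = 0.00627). The groups were apart in both genes, and the rises were 1.65-fold and 1.82-fold. Sema3d, a further class 3 ligand, averaged 3.47 ± 0.236 CPM in IL-13 and 2.34 ± 0.287 CPM in untreated cells (SD, n = 4 each; adjusted p = 0.00733). Sema3a, the ligand of neuropilin 1 that repels sensory axons, was slightly lower, at 19.8 ± 2.31 against 23.0 ± 1.30 CPM, with groups that overlapped (adjusted p = 0.0415). Sema3e, which binds plexin D1 without a neuropilin, was at 1.61 ± 0.214 and 1.89 ± 0.443 CPM and Sema3g at 0.665 ± 0.129 and 0.465 ± 0.206 CPM, and neither passed the test.

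The membrane-bound ligands were more often lower than higher at day 0. Sema5a, a transmembrane ligand with thrombospondin repeats, had 61.4, 58.1, 53.0 and 67.9 CPM in IL-13 libraries against 115, 119, 110.4 and 115 CPM in untreated libraries. The groups were far apart, and the level was 1.93-fold lower with IL-13 (log2 fold change -0.95, SE 0.07, adjusted p = 3.47e-08). Sema7a, a ligand anchored by a lipid that acts through plexin C1 and integrin beta 1, had 3.595, 3.10, 2.91 and 3.96 CPM with IL-13 and 6.56, 6.22, 7.66 and 8.78 CPM without it (log2 fold change -1.12, SE 0.15, adjusted p = 2.61e-05). Sema6d, a ligand of plexin A1, had 32.0, 31.1, 26.8 and 33.4 CPM with IL-13 and 46.9, 46.9, 42.7 and 44.0 CPM without it (log2 fold change -0.56, SE 0.07). Both were lower in every IL-13 library than in any untreated library. Sema4b, a transmembrane class 4 ligand, went the other way, at 27.4, 27.9, 27.7 and 25.9 CPM in IL-13 and 17.2, 16.4, 20.1 and 18.6 CPM in untreated cells (log2 fold change 0.58, SE 0.07, adjusted p = 2.14e-05). Sema4c, a ligand of plexin B2, was at 17.3, 17.2, 17.0 and 19.1 CPM and 22.0, 17.8, 22.1 and 23.1 CPM, with overlapping groups (log2 fold change -0.29, adjusted p = 0.0150). It shares 7.27% of its exon bases with D430040D24Rik on the other strand, which had 14 to 32 counts a library, so its value is uncertain to that extent. Sema4a, Sema4g, Sema6b and Sema6c passed no threshold, with log2 fold changes between -0.29 (Sema4a) and 0.19 (Sema6c).

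Among the receptors at day 0, Plxna4, on the minus strand of chromosome 6 at 32144268 to 32588192 (mm10), showed the largest change of the family. This class A plexin, a receptor of Sema3a with neuropilin 1 and of Sema6a and Sema6b without one, had 1006, 793, 877 and 814 counts in the IL-13 libraries and 108, 95, 100 and 93 counts in the untreated libraries. In CPM these were 60.3, 50.2, 52.1 and 52.0 with IL-13 and 5.53, 5.85, 5.76 and 4.98 without it, a 9.61-fold difference (log2 fold change 3.26, SE 0.08, adjusted p = 1.57e-13). Every IL-13 library was thus several-fold above every untreated one. Plxnd1, the receptor of Sema3e, had 114, 123, 125 and 120.3 CPM with IL-13 and 68.5, 63.8, 74.2 and 70.8 CPM without it (log2 fold change 0.78, SE 0.05, adjusted p = 2.84e-08). Plxnc1, the receptor of Sema7a, was a low transcript, at 2.28, 2.09, 2.31 and 1.92 CPM with IL-13 and 1.23, 0.863, 1.38 and 1.12 CPM without it (log2 fold change 0.88, SE 0.20, adjusted p = 0.00219). These 3 plexins were the ones called higher, each with groups that did not overlap.

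Plexins called lower at day 0 were Plxna1, Plxna2, Plxna3 and Plxnb1. Plxnb1, the receptor of Sema4d, had 1.498, 2.15, 2.08 and 2.36 CPM in IL-13 libraries and 5.22, 3.45, 3.92 and 4.87 CPM in untreated libraries (log2 fold change -1.13, SE 0.18, adjusted p = 1.97e-04). Plxna2, a class A plexin known from neuronal migration, had 42.5, 41.3, 38.2 and 42.6 CPM with IL-13 and 63.3, 61.4, 50.3 and 63.2 CPM without it (log2 fold change -0.55, SE 0.08). Plxna3, a class A plexin that signals for Sema3f with neuropilin 2, had 29.0, 30.96, 28.3 and 28.6 CPM with IL-13 and 42.9, 38.3, 32.7 and 44.0 CPM without it (log2 fold change -0.45, SE 0.09). In all 3 the IL-13 libraries lay below the untreated ones, and the falls were 2.19-fold, 1.46-fold and 1.37-fold. Plxna1 had 199.9, 196, 182 and 207 CPM with IL-13 and 233, 213, 238 and 258 CPM without it (log2 fold change -0.28, adjusted p = 0.00269); 10.71% of its exon bases lie opposite Gm26811, which had 0 to 3 counts a library. Plxnb2, the most abundant plexin, was at 562, 599, 599.5 and 559 CPM with IL-13 and 519.9, 531, 621 and 567 CPM without it. Its groups overlapped, and the 95% interval of its log2 fold change was -0.09 to 0.16.

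The 2 neuropilins moved in opposite directions. Nrp1 lies on the plus strand of chromosome 8 at 128358604 to 128503363 and Nrp2 on the plus strand of chromosome 1 at 62703285 to 62818695 (mm10). Nrp1, the co-receptor of Sema3a and VEGF-A, had 294, 260.3, 253 and 288 CPM in the IL-13 libraries and 161, 163, 155 and 148 CPM in the untreated libraries (log2 fold change 0.79, SE 0.06, adjusted p = 7.56e-08). Nrp2, the co-receptor of Sema3f, Sema3g and VEGF-C, had 134, 137, 131 and 137 CPM in the IL-13 libraries and 284, 291, 292 and 282 CPM in the untreated libraries (log2 fold change -1.11, SE 0.05, adjusted p = 5.74e-11). The groups were apart in both genes, with a rise of 1.73-fold for Nrp1 and a fall of 2.15-fold for Nrp2. The ratio of Nrp1 to Nrp2 counts, which needs no library scaling, was 2.19, 1.90, 1.93 and 2.10 in IL-13 libraries against 0.568, 0.558, 0.530 and 0.526 in untreated libraries at day 0. It was 0.697, 0.660, 0.731 and 0.639 in IL-13 libraries and 0.646, 0.664, 0.621 and 0.593 in untreated libraries at day 6, where the groups overlapped. The libraries in which Nrp1 outnumbered Nrp2 were thus the 4 IL-13 libraries of day 0.

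**Figure D2:**
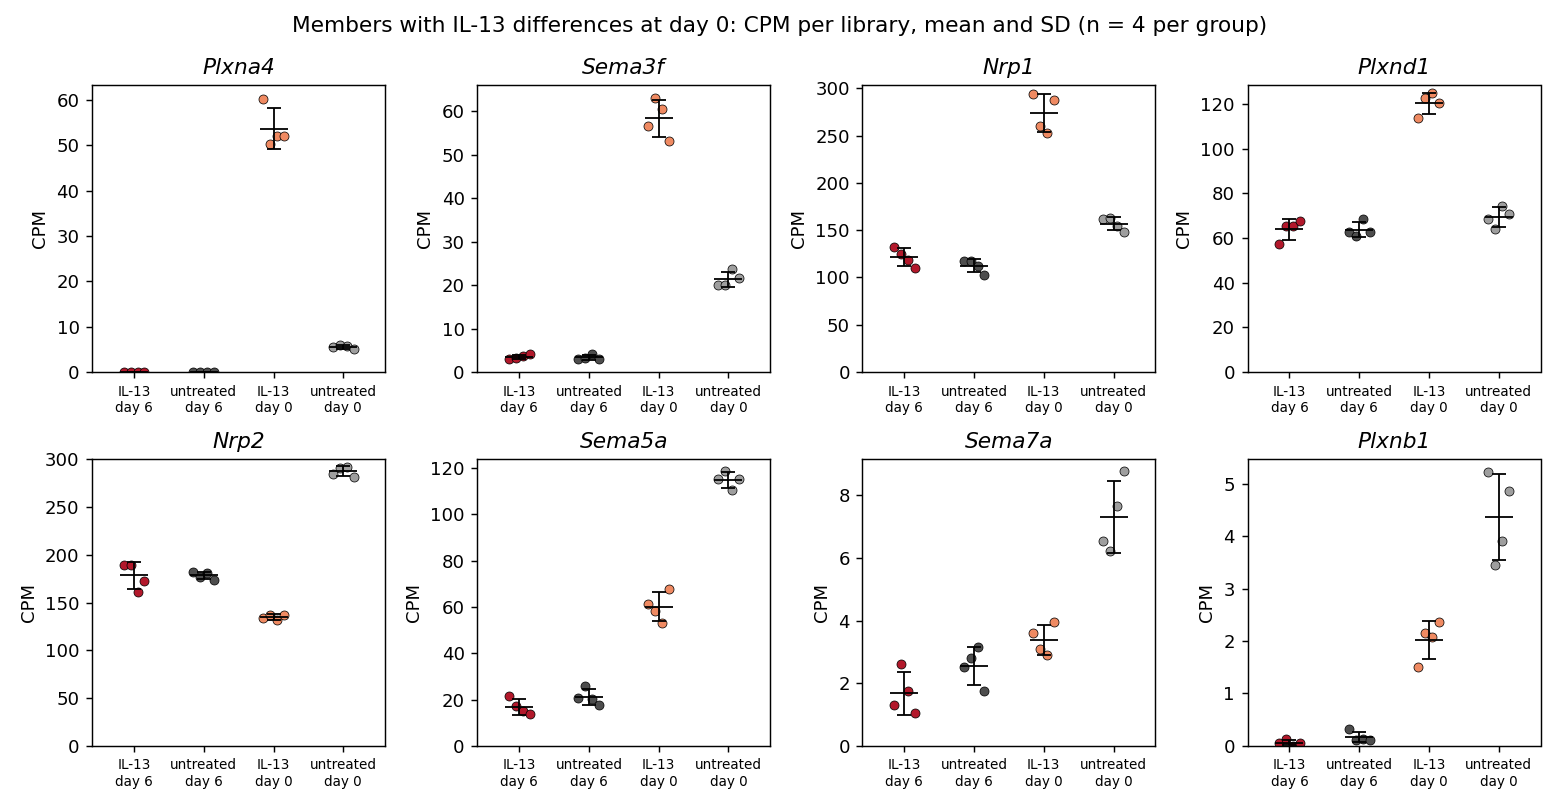
CPM of 8 members in each library (points), with the mean and SD of 4 libraries, for IL-13 and untreated cells at day 6 and at day 0 (linear axes from 0). At day 0 the IL-13 points lie above the untreated ones for Plxna4, Sema3f, Nrp1 and Plxnd1 and below them for Nrp2, Sema5a, Sema7a and Plxnb1, while at day 6 the groups overlap in each of these genes.

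In bulk RNA, fewer cells that express a gene and less RNA of it per cell cannot be told apart, which holds for all these values. With the nuclear index in the fit 7.56% of all genes were called, against 47.9% without it, and 9 of the 26 members stayed called, namely Sema3f, Sema4b, Plxna4, Plxnd1 and Nrp1 higher and Sema5a, Sema6d, Sema7a and Nrp2 lower. Every SE was wider with the index in the fit, also in the 9 that stayed called. The other 10 lost the call there, with adjusted p-values from 0.111 (Sema3b) to 0.900 (Sema3a). Their log2 fold changes with the index in the fit were 0.60 for Sema3b, 1.11 for Sema3c, 0.58 for Sema3d, 0.80 for Plxnc1, -0.74 for Plxnb1, -0.22 for Sema4c and -0.21 for Plxna1, against 0.72, 0.86, 0.55, 0.88, -1.13, -0.29 and -0.28 without it. Those of Plxna2, Sema3a and Plxna3 were nearer to 0, at -0.23, -0.06 and -0.05, against -0.55, -0.23 and -0.45 without it. Sema3a also lost it without untreated library 1 (adjusted p = 0.112), 2 (0.0645) or 4 (0.107) and without IL-13 library 1 (0.112) or 3 (0.144), and Sema4c without untreated library 4 (0.0574).

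Lists of pathway genes around the family were looked at in the fit without the index, where 47.9% of all genes were called (23.7% higher and 24.2% lower). Of the VEGF genes that share the neuropilins, 7 of 8 were tested at day 0, and Flt1 and Vegfc were called higher and Vegfd lower. Flt1, a VEGF receptor also made as a soluble decoy, averaged 3.80 ± 0.753 CPM in IL-13 cells and 0.214 ± 0.0848 CPM in untreated cells (log2 fold change 4.12, SE 0.29, adjusted p = 2.67e-08), while the endothelial markers were at or near 0 as given above. Vegfc, a ligand that uses neuropilin 2, averaged 3.25 ± 0.372 and 1.71 ± 0.268 CPM (adjusted p = 6.66e-04). Of the co-receptors and non-plexin receptors, 6 of 11 were tested, 0 were called higher and 3 lower. These were Ptk7, at 17.0 ± 1.29 CPM with IL-13 and 30.0 ± 2.30 CPM without it, Met, at 18.8 ± 1.49 and 29.8 ± 1.45 CPM, and Erbb2, whose log2 fold change was -0.18. At an unadjusted p under 0.05 the count of this list was 4. Of 31 intracellular mediators, 27 were tested, and 5 were called higher and 7 lower. Limk1, a kinase that phosphorylates cofilin downstream of semaphorins, averaged 59.5 ± 3.04 CPM in IL-13 and 28.2 ± 2.00 CPM in untreated cells (log2 fold change 1.06, SE 0.06, adjusted p = 4.53e-09), and Rnd2, of the Rnd group of small GTPases that bind plexins, had a log2 fold change of 0.69. On the lower side were Mical2, an actin-oxidising enzyme of the Mical group, with a log2 fold change of -0.61, Rnd3, with -0.64, and the collapsin response mediator Dpysl3, with -0.55. Of 7 proteases known to process semaphorins or neuropilins, 6 were tested. Adam10 was called higher and Adam17, Adamts1, Mmp14 and Pcsk6 lower, all with log2 fold changes between -0.40 (Pcsk6) and 0.21 (Adam10). Medians over the tested genes were 0.07 for the VEGF list, -0.38 for the co-receptors, 0.00 for the mediators and -0.20 for the proteases, beside -0.01 for all genes. Of the 23 pathway genes called at day 0, 10 stayed called with the nuclear index in the fit, where 7.56% of all genes were called. The 10 included Flt1 (log2 fold change 3.64), Limk1 (1.004), Ptk7 (-0.75), Met (-0.53) and Vegfc (1.196). Rnd2 (0.32, adjusted p = 0.185) and Erbb2 (-0.09, adjusted p = 0.727) were among the 13 that lost the call.

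At day 6 the question was which differences between pre-treated and untreated cells were seen in differentiated cells. Of the 24 members tested, 0 were called higher and 1, Plxna3, lower by edgeR's quasi-likelihood test, 23 were not called and 7 were not tested. Over all 12352 genes tested the share called was 6.55% (2.21% higher and 4.34% lower), and over the members it was 4.17%. The 809 genes behind that share depended on single libraries: 102, 60 and 523 were called without untreated library 1, 2 or 3, and 2328, 62, 205 and 320 without IL-13 library 1, 2, 3 or 4. With the nuclear index in the fit 0 genes of all were called by edgeR. No member was called with a change of 2-fold or more, beside 0.988% of all genes. At an unadjusted p under 0.05 the members were 0 higher and 3 lower (Plxna3, Sema4c and Plxna1), and DESeq2 called the same single gene. Plxna3 had 8.66, 8.19, 8.09 and 6.88 CPM in IL-13 libraries and 13.5, 12.1, 11.5 and 10.1 CPM in untreated libraries. These groups did not overlap (log2 fold change -0.55, SE 0.12, adjusted p = 0.0242). The call was lost without untreated library 1 (adjusted p = 0.0929) or 2 (0.0835) and without IL-13 library 2 (0.0735), 3 (0.0509) or 4 (0.0580). It was also lost with the nuclear index in the model (adjusted p = 0.683).

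Of the 19 members called at day 0, 9 had an effect at day 6 that differed from it by the interaction test given below. Nrp2 had 189.6, 189, 161 and 173 CPM in IL-13 libraries and 182, 177, 181 and 173 CPM in untreated libraries, and the 95% interval of its log2 fold change was -0.11 to 0.13. Nrp1 had 132, 125, 118 and 110.4 CPM with IL-13 and 118, 117, 112 and 103 CPM without it (interval -0.01 to 0.25). Both pairs of groups overlapped, and the intervals do not reach the values seen at day 0. Plxnd1 was at 57.1, 65.6, 65.3 and 67.4 CPM with IL-13 and 62.6, 60.7, 68.4 and 62.8 CPM without it (interval -0.12 to 0.16). Sema3f had 3.09, 3.16, 3.61 and 4.08 CPM with IL-13 and 3.03, 3.27, 4.16 and 2.96 CPM without it (interval -0.25 to 0.40). Sema3g, the leading ligand at that time, had 114, 159, 104 and 125 CPM with IL-13 and 117, 130.5, 141 and 136 CPM without it (adjusted p = 0.825). In none of these 3 were the groups apart. Other members had folds at day 6 of about the size seen at day 0: the log2 fold change was -0.55 at day 6 and -0.45 at day 0 for Plxna3, and -0.37 and -0.29 for Sema4c. Sema7a averaged 1.67 ± 0.684 and 2.55 ± 0.605 CPM (adjusted p = 0.198), Sema5a 16.9 ± 3.42 and 21.0 ± 3.38 CPM (adjusted p = 0.200), and Sema4c 10.1 ± 1.58 and 13.2 ± 1.45 CPM (adjusted p = 0.0859), in IL-13 and untreated cells. Sema6d had 35.8, 35.7, 29.0 and 35.1 CPM with IL-13 and 36.0, 39.3, 40.4 and 36.6 CPM without it, which did not overlap but did not pass the test (adjusted p = 0.233). Plxna4 could not be compared, since it had 1, 0, 0 and 1 counts in IL-13 and 0, 0, 0 and 1 counts in untreated libraries. Of the pathway lists, Vegfa, the VEGF that binds neuropilin 1, was the 1 gene called at day 6, at 159 ± 26.3 CPM in IL-13 and 246 ± 31.3 CPM in untreated cells (log2 fold change -0.62, SE 0.12, adjusted p = 0.0200). With the nuclear index in the fit it was not called (log2 fold change -0.22, adjusted p = 0.818).

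**Figure D3:**
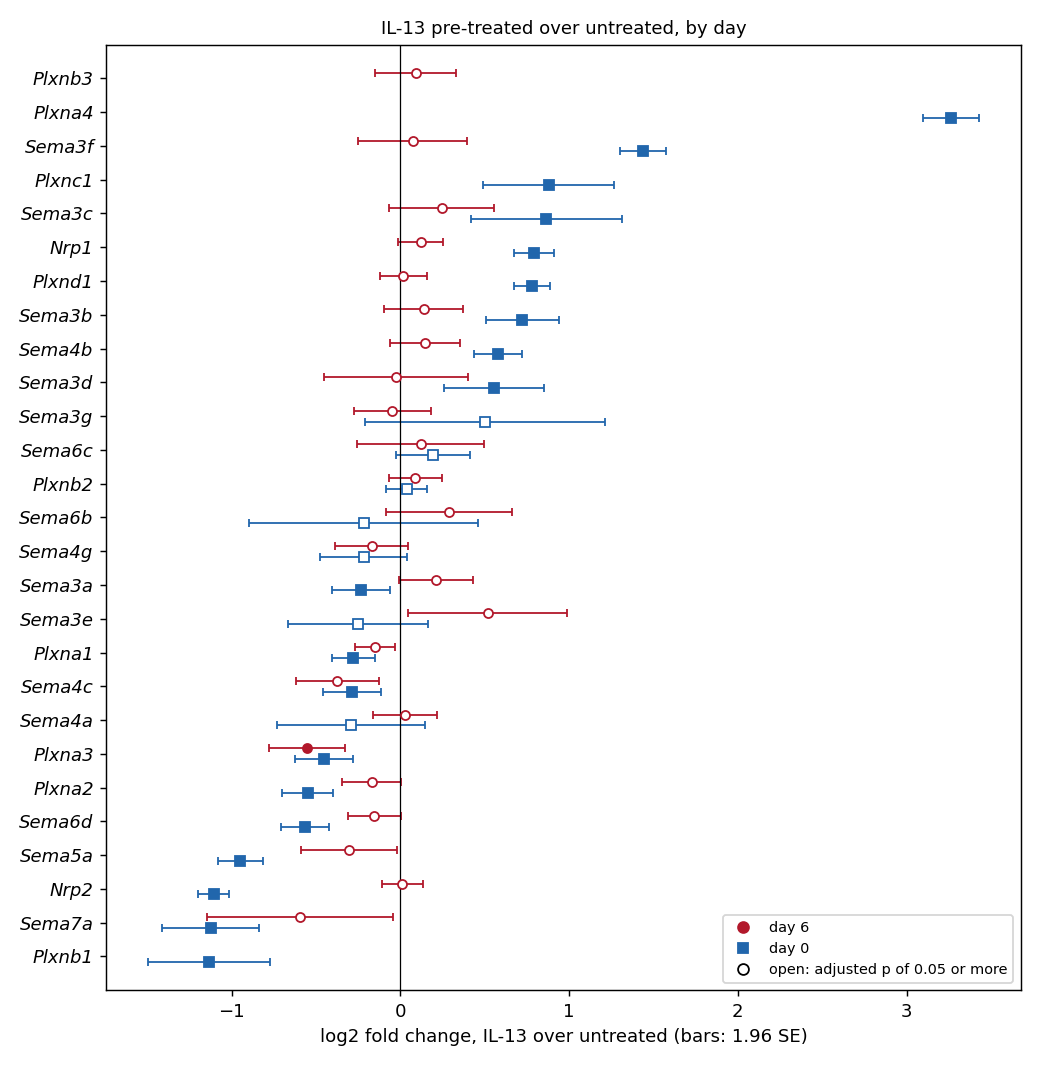
Log2 fold change of IL-13 over untreated cells for the members tested, at day 6 (circles) and day 0 (squares), with bars for the approximate 95% interval (normal), and open symbols for an adjusted p of 0.05 or more. Plxna4 stands at 3.26 at day 0, the neuropilins lie on opposite sides of 0 (0.79 for Nrp1 and -1.11 for Nrp2), and the filled circle of day 6 is Plxna3 at -0.55.

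The difference between the IL-13 effects of the 2 days was tested directly as an interaction over all 16 libraries, as the effect at day 6 minus that at day 0. Of 27 members tested, 3 were called higher (Nrp2, Sema5a and Sema6d) and 6 lower (Sema3f, Plxnd1, Nrp1, Plxnc1, Sema3b and Sema4b), which is 33.3%. Over all genes 8.06% were called, 3.12% higher and 4.95% lower. The Nrp2 effect was 1.09 higher at day 6 on the log2 scale (SE 0.07, adjusted p = 1.90e-09), and that of Sema3f was lower by the interaction value of -1.39 (SE 0.16, adjusted p = 4.63e-06). The values for Plxnd1 and Nrp1 were -0.79 (SE 0.09) and -0.70 (SE 0.09), with adjusted p-values of 2.40e-06 and 2.41e-05. For each of these 4 genes the effect of IL-13 was thus closer to 0 at day 6 than at day 0. Sema5a had 0.62 (SE 0.17) and Sema6d 0.38 (SE 0.11), in the direction opposite to their falls at day 0. Plxnc1 had 0.371, 0.0620, 0.0669 and 0.350 CPM in IL-13 and 0.322, 0.594, 0.462 and 0.348 CPM in untreated libraries at day 6, from 14 and 28 counts in all, and an interaction value of -1.87 (SE 0.51). Plxna4, whose fold at day 0 was the largest, had a value of -2.53 (SE 1.82) and was not called (adjusted p = 0.562), since its 2 and 1 counts at day 6 leave the effect there undetermined. Among the pathway genes the same test called Flt1 (-4.49, SE 1.18, from 3 counts in IL-13 and 4 in untreated libraries at day 6, so that its size is not determined) and Limk1 (-1.04, SE 0.12) lower, and Met (0.72, SE 0.11), Ptk7 (0.71, SE 0.14), Rnd3, Mical2, Dpysl3, Pcsk6 and Adam17 higher. The calls of Sema3b and Sema4b were lost without most of the single libraries, with adjusted p-values up to 0.0890 for Sema3b (without untreated library 1 of day 0) and 0.160 for Sema4b (without untreated library 4 of day 6). Plxnc1 was not called without untreated library 2 of day 0 (adjusted p = 0.0541) or of day 6 (0.0887), untreated library 3 of day 6 (0.0608), IL-13 library 3 of day 0 (0.0551) or of day 6 (0.0563), or IL-13 library 2 of day 6 (0.0708). Without the untreated libraries with most nuclear RNA (1 and 4 of day 0, 1 and 2 of day 6), 4.09% of all genes were called. The calls of Sema3b, Sema4b, Sema6d (adjusted p = 0.2085) and Plxnc1 were lost there.

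Differentiation was compared as day 6 against day 0, separately in IL-13 and untreated cells; the 2 days stand in separate deposited tables, so day and table cannot be told apart. In both treatments a few ligands and 1 plexin rose steeply and most receptors fell. Of 27 members tested in IL-13 cells, 9 were called higher and 15 lower (40.6% and 40.3% of all genes), and in untreated cells 8 were called higher and 15 lower (41.5% and 39% of all genes). The shares called were 88.9% and 85.2% of the tested members, against 80.8% and 80.5% of all 13157 genes tested, so that a call by itself says little about a member here. Changes of 2-fold or more were called for 16 members in IL-13 and 15 in untreated cells, beside 39.1% and 38.7% of all genes. The median log2 fold change of the members was -0.79 in IL-13 and -0.48 in untreated cells, that of all genes 0.00 and 0.04.

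Sema3g, on the plus strand of chromosome 14 at 31217860 to 31230352 (mm10), showed the steepest rise. It had 114, 159, 104 and 125 CPM in IL-13 cells at day 6 against 0.599, 0.697, 0.534 and 0.831 CPM at day 0 (log2 fold change 7.55, SE 0.19). In untreated cells it had 117, 130.5, 141 and 136 CPM at day 6 against 0.564, 0.616, 0.518 and 0.161 CPM at day 0 (log2 fold change 8.13, SE 0.19), and the days were far apart in both treatments. Plxnb3, a class B plexin that binds Sema5a, had 434 counts in IL-13 and 414 counts in untreated cells at day 6, against 6 and 9 counts at day 0. Its levels at day 6 were 6.18, 7.82, 6.22 and 6.70 CPM with IL-13 and 5.79, 6.12, 6.53 and 7.08 CPM without it. From the counts the ratio of day 6 to day 0 was 73.0 in IL-13 cells (95% interval 33.3 to 200, exact, for counting error only) and 51.0 in untreated cells (26.6 to 112). Sema4a, a transmembrane ligand known from immune cells, had 9.15, 9.18, 10.6 and 10.1 CPM at day 6 and 1.20, 0.760, 1.07 and 1.15 CPM at day 0 in IL-13 cells. Its untreated libraries had 9.72, 8.85, 10.03 and 9.98 CPM at day 6 and 1.23, 1.48, 1.21 and 1.18 CPM at day 0 (log2 fold change 2.92, SE 0.13, adjusted p = 1.26e-14). All 3 genes were apart between the days in both treatments, and none of them was called with IL-13 at day 6.

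The remaining ligands that rose did so less. Sema3c had 4.39, 4.22, 3.28 and 4.78 CPM at day 6 with IL-13 and 3.605, 4.10, 3.56 and 2.96 CPM without it, with log2 fold changes over day 0 of 1.37 (SE 0.17) and 2.01 (SE 0.19). Sema3b had 8.72, 12.3, 10.9 and 10.6 CPM at day 6 with IL-13 and 8.76, 9.86, 10.2 and 10.2 CPM without it, and its rises were 0.32 (SE 0.11) and 0.93 (SE 0.11). Sema3b was apart between the days in untreated cells and overlapped in IL-13 cells, where day 0 was already higher. Sema4b had 23.8, 27.5, 29.3 and 30.4 CPM at day 6 with IL-13 and 22.0, 23.3, 26.98 and 28.9 CPM without it, and was called in untreated cells (log2 fold change 0.49) and not in IL-13 cells (0.03). Sema4g, a ligand of plexin B2, had 8.24, 7.43, 8.05 and 8.12 CPM at day 6 and 6.199, 6.35, 5.18 and 6.37 CPM at day 0 in untreated cells (log2 fold change 0.40, SE 0.12), and 7.01 ± 0.690 against 5.24 ± 0.815 CPM in IL-13 cells. Sema6b had 1.54, 1.72, 1.65 and 1.39 CPM at day 6 and 0.717, 0.678, 0.806 and 1.87 CPM at day 0 in untreated cells, with overlapping groups. Its call there (adjusted p = 0.0490) was lost without untreated library 1 (0.171), 2 (0.176) or 3 (0.120) of day 0 and without any one untreated library of day 6 (0.0667 to 0.120), whereas in IL-13 cells its log2 fold change was 1.09 (SE 0.28).

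Several ligands fell with differentiation. Sema3f had 3.03, 3.27, 4.16 and 2.96 CPM at day 6 in untreated cells against 20.0, 20.1, 23.7 and 21.5 CPM at day 0, and 3.49 ± 0.458 against 58.3 ± 4.30 CPM in IL-13 cells. The fall was 16.7-fold in IL-13 cells and 6.37-fold in untreated cells, and the interaction given above is the test of that difference. Sema5a had 20.5, 25.7, 20.2 and 17.6 CPM at day 6 against 115, 119, 110.4 and 115 CPM at day 0 in untreated cells, a 5.47-fold fall, and fell 3.56-fold in IL-13 cells. Sema6c, a ligand of plexin A1, had 1.42, 1.84, 1.39 and 1.92 CPM at day 6 against 7.74, 6.10, 6.91 and 6.91 CPM at day 0 in untreated cells, with log2 fold changes of -2.17 with IL-13 and -2.07 without it. Sema7a had 2.51, 2.79, 3.17 and 1.74 CPM at day 6 against 6.56, 6.22, 7.66 and 8.78 CPM at day 0 in untreated cells (log2 fold change -1.52, SE 0.20). In each of these ligands every day 6 library was below every day 0 library of the same treatment. Sema3a fell 1.55-fold with IL-13 and 2.07-fold without it, and Sema4c 1.75-fold and 1.61-fold. Sema6d fell only in untreated cells (-0.25, SE 0.08, against 0.14 (SE 0.08) in IL-13 cells), and Sema3d was called lower in IL-13 cells (-0.79, SE 0.18) and not in untreated cells (-0.19, SE 0.18). For Sema6d the difference between these folds is the interaction called above, and for Sema3d the interaction did not pass (adjusted p = 0.174). Without the untreated libraries with most nuclear RNA, the fall of Sema6d in untreated cells (adjusted p = 0.0989) and its interaction were not called. Sema3e was not called in either treatment.

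**Figure D4:**
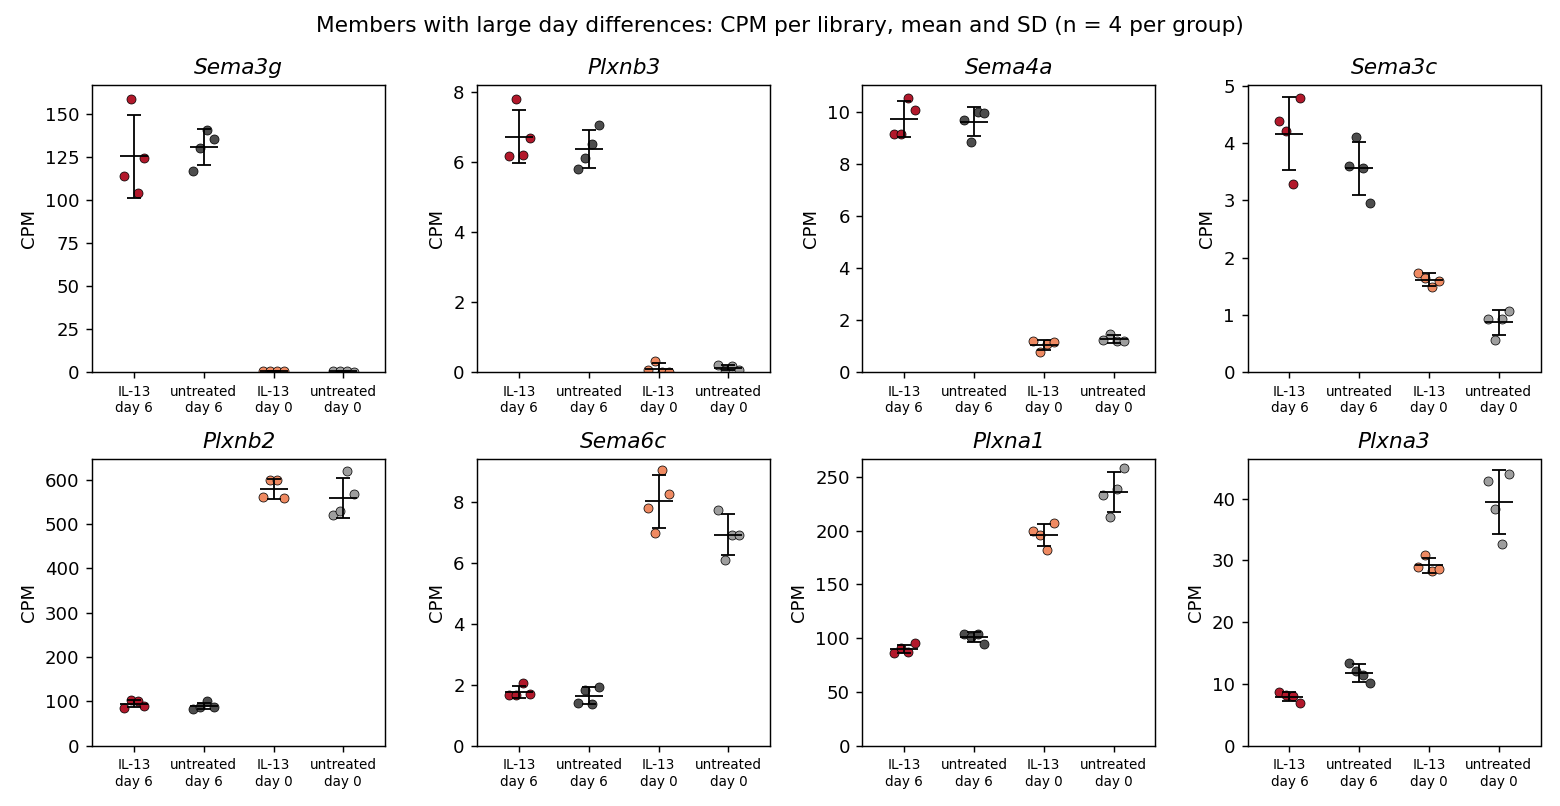
CPM of 8 members in each library (points), with the mean and SD of 4 libraries, for IL-13 and untreated cells at day 6 and at day 0 (linear axes from 0). The day 6 points of Sema3g, Plxnb3, Sema4a and Sema3c lie above all day 0 points, and those of Plxnb2, Sema6c, Plxna1 and Plxna3 lie below them.

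Plxnb2 and Plxna1, the most abundant plexins, fell in both treatments. Plxnb2 had 85.0, 103, 100.1 and 90.8 CPM at day 6 in IL-13 cells and 83.7, 88.1, 101 and 87.0 CPM in untreated cells, which was 6.12-fold and 6.23-fold below day 0 (log2 fold changes -2.61 (SE 0.08) and -2.64 (SE 0.08)). Plxna1 had 86.6, 90.5, 87.0 and 95.4 CPM at day 6 with IL-13 and 104, 101, 104 and 94.2 CPM without it, 2.18-fold and 2.34-fold below day 0. Plxna3, with the day 6 values given above, was 3.67-fold and 3.36-fold below day 0. In these 3 plexins all libraries of day 6 were under all those of day 0. Plxnb1 had 1, 2, 0 and 1 counts in IL-13 and 5, 2, 2 and 2 counts in untreated libraries at day 6, and was 32.5-fold (95% interval from counts 12.4 to 121) and 26-fold (14.3 to 52.6) lower than at day 0. Plxna4 was lost almost wholly: its 2 counts in IL-13 cells and 1 count in untreated cells at day 6 stood against 3490 and 396 counts at day 0. From the counts the fold was 1729 in IL-13 cells (95% interval 478 to 14290) and 357 in untreated cells (63.7 to 14140), intervals that cover counting error only. Plxnc1 was 9.91-fold lower in IL-13 cells (5.71 to 18.6) and 2.67-fold lower in untreated cells (1.72 to 4.26) by the same measure. Plxnd1 averaged 63.8 ± 4.59 CPM at day 6 against 120.4 ± 4.71 CPM at day 0 in IL-13 cells, and 63.6 ± 3.35 against 69.3 ± 4.35 CPM in untreated cells, where it was not called (adjusted p = 0.0722). Plxna2 averaged 58.0 ± 4.84 against 41.1 ± 2.04 CPM in IL-13 cells, a rise (0.49, SE 0.09), and 65.8 ± 8.44 against 59.5 ± 6.26 CPM in untreated cells, where it was not called (log2 fold change 0.14).

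Of the neuropilins, Nrp1 fell in both treatments and Nrp2 fell in untreated cells and rose in IL-13 cells. Nrp1 was 2.26-fold lower at day 6 than at day 0 in IL-13 cells and 1.39-fold lower in untreated cells (log2 fold changes -1.17 (SE 0.07) and -0.48 (SE 0.07)). Nrp2 averaged 178 ± 13.7 CPM at day 6 against 135 ± 2.74 CPM at day 0 in IL-13 cells, and 178 ± 4.12 against 287 ± 5.22 CPM in untreated cells (log2 fold changes 0.40 (SE 0.05) and -0.69 (SE 0.05)). The groups of day 6 and day 0 did not overlap for either gene in either treatment. Since the IL-13 effect at day 0 and the day effects are computed from the same day 0 libraries, these values are not independent of the IL-13 results above.

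**Figure D5:**
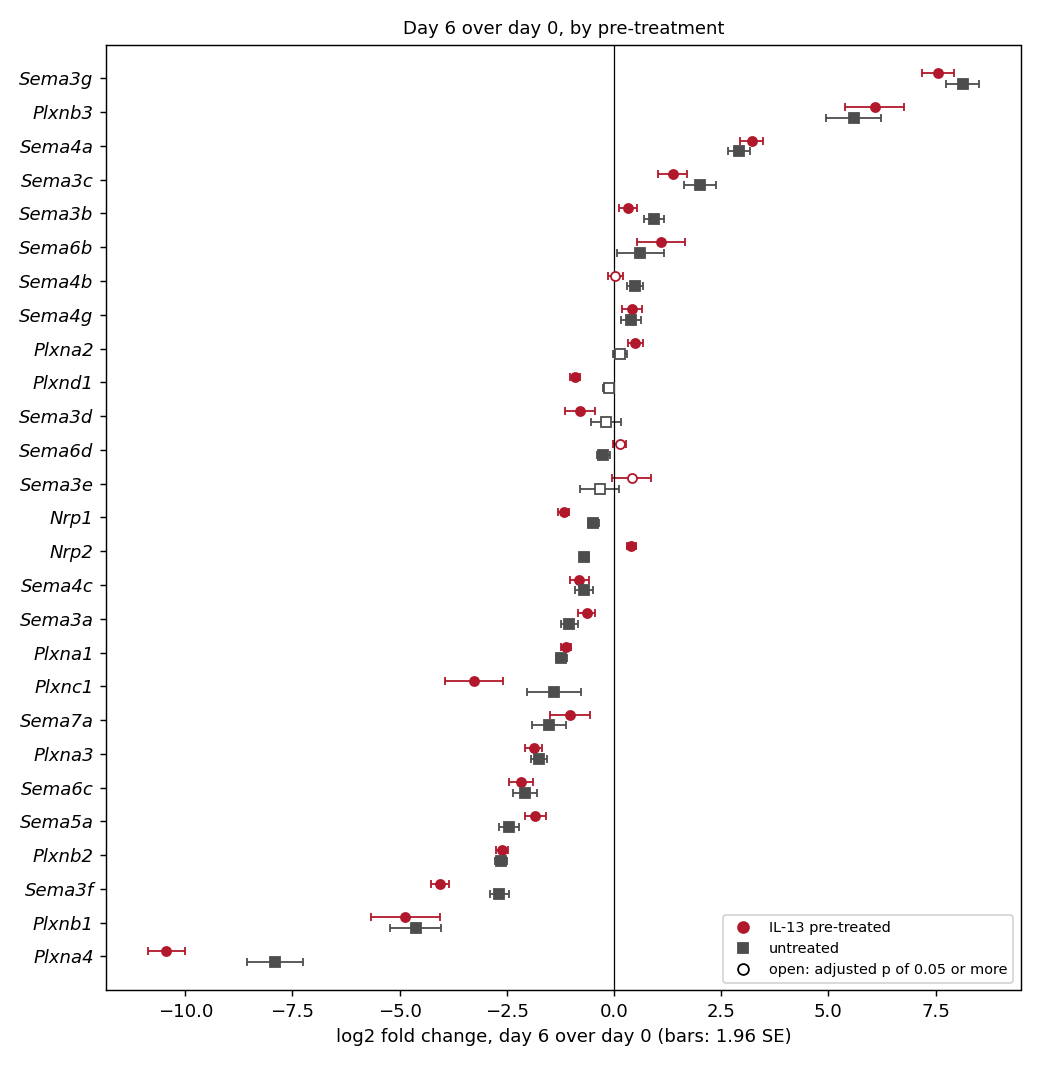
Log2 fold change of day 6 over day 0 for the 27 members tested, in IL-13 cells (circles) and untreated cells (squares), with bars for the approximate 95% interval (normal), and open symbols for an adjusted p of 0.05 or more. Sema3g (7.55 and 8.13), Plxnb3 (6.08 and 5.59) and Sema4a (3.21 and 2.92) stand at the top and Plxna4 at the foot, where its fitted values of -10.44 and -7.91 rest on 2 and 1 counts at day 6 and depend on the fit's prior count.

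In each pathway list more genes were called lower than higher, beside 40.6% higher and 40.3% lower of all genes in IL-13 cells and 41.5% and 39% in untreated cells. Of 27 intracellular mediators tested, 6 were called higher and 18 lower in IL-13 cells, and again 6 and 18 in untreated cells, with medians of -0.64 and -0.54. Dpysl3 averaged 3.06 ± 0.501 CPM at day 6 and 102 ± 3.94 CPM at day 0 in IL-13 cells, and 3.13 ± 0.369 against 148 ± 6.49 CPM in untreated cells (log2 fold change -5.57, SE 0.09, adjusted p = 7.84e-22). Also lower in untreated cells were Mical2 (-3.36, SE 0.07), Fyn, a kinase recruited by plexins (-3.38, SE 0.11), and Farp1, a plexin-binding exchange factor (-2.48, SE 0.07). Limk1 and Mical3 were among the 6 that rose, with 1.89 (SE 0.09) and 1.45 (SE 0.09) in untreated cells. Of the 7 co-receptors tested, 2 rose in both treatments, and 3 fell in IL-13 and 4 in untreated cells. Met, the receptor of hepatocyte growth factor that pairs with plexin B1, averaged 94.9 ± 9.74 CPM at day 6 against 18.8 ± 1.49 CPM at day 0 in IL-13 cells, and 91.3 ± 6.00 against 29.8 ± 1.45 CPM in untreated cells. L1cam, a neuropilin 1 partner in axons, averaged 3.23 ± 0.312 against 0.0905 ± 0.0762 CPM and 2.96 ± 0.281 against 0.164 ± 0.113 CPM. Erbb2, another plexin B1 partner, went down (-2.58, SE 0.08 with IL-13 and -2.65 (SE 0.07) without it). Of the 7 VEGF genes tested, 2 rose and 5 fell in each treatment, and Vegfa averaged 159 ± 26.3 against 27.8 ± 1.21 CPM in IL-13 cells and 246 ± 31.3 against 31.6 ± 6.201 CPM in untreated cells. Of the 6 proteases tested, 2 were called higher and 4 lower in IL-13 cells, and 1 higher and 4 lower in untreated cells. Mmp14, a membrane-anchored protease, had -2.63 (SE 0.07) and -2.71 (SE 0.07), and Furin, which cleaves class 3 semaphorins, -1.06 (SE 0.09) and -0.996 (SE 0.09).

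The members that were not tested in any comparison were Sema4d, Sema4f, Sema5b and Sema6a, none of which reached 10 counts in any library. Sema4d, the ligand of plexin B1, had 11 counts over the 4 IL-13 libraries and 4 over the untreated libraries at day 6, and 5 and 11 at day 0. Sema4f had 0 and 1 at day 6 and 17 and 12 at day 0, Sema5b had 6, 2, 2 and 2 in the same order of groups, and Sema6a had 3, 1, 4 and 8. Without the filter on low counts Sema4f was called lower at day 6 than at day 0, in IL-13 cells (adjusted p = 1.38e-04) and in untreated cells (adjusted p = 0.00803). For Sema4d, Sema5b and Sema6a no difference was detectable at these depths.

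The members lie on 17 chromosomes. Sema3a, Sema3c, Sema3d and Sema3e are all on chromosome 5, and Sema3b and Sema3f are both on the minus strand of chromosome 9, at 107597674 to 107609229 and 107681500 to 107710475 (mm10). Sema3d (12383385 to 12588948), Sema3a (13125414 to 13602565), Sema3e (14025276 to 14256689) and Sema3c (17574281 to 17730268) follow each other on the plus strand of chromosome 5. Within that run, Sema3c rose and Sema3a fell with differentiation in both treatments, and Sema3c and Sema3d rose while Sema3a fell with IL-13 at day 0. The neighbours on chromosome 9 both rose with IL-13 at day 0, and with differentiation Sema3b rose and Sema3f fell. Of these IL-13 calls at day 0, that of Sema3f was kept with the nuclear index in the fit. Those of Sema3a, whose groups overlapped, Sema3b, Sema3c and Sema3d were lost there.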

How the data were processed

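Polyadenylated RNA of 16 libraries in 4 groups of 4 was measured with Illumina's stranded mRNA kit from 2 ug of total RNA, per the labels' protocols. The authors deposited a table for each day with 41325 genes. Per the file headers, its columns hold raw read counts of each gene, which the authors did not normalize, and TPM values, which the authors scaled to transcript length and library size. The genome build was mm10, per the submitters' processing notes; aligner, counter, annotation and strand setting: not given in the sources used here. A further 32 value columns of the samples (RPKM and CPM) and the authors' own comparison columns were not used. TPM served to compare levels between genes within a group, and counts for all tests.

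Counts were tested with edgeR 4.0.16 in R 4.3.3 (quasi-likelihood test, robust fit, trimmed mean of M values scaling, expression filter at 10 counts and a total of 15). Each IL-13 comparison used the 8 libraries of its day, and the day comparisons and the interaction used all 16. Benjamini-Hochberg adjustment ran over all genes tested, and calls needed an adjusted p below 0.05. The SE was derived as log2 fold change over the root of F. The fit was tested on simulated data. The index was tested by an exact permutation test in R 4.3.3. Intervals from counts, computed with scipy 1.17.1, are exact at 95% and cover counting error only, since amplified reads are not independent molecules.

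The members, the pathway and marker lists and the tests were chosen with earlier results of these data known. Values in every library are given for the members called with the largest changes (up to 8 in each direction) at day 0 and over the days in untreated cells, for those called at day 6 or in the interaction, and for the 3 most abundant of each family. The plan was to name up to 4 genes of a pathway list per comparison, by smallest p. More are named for the mediators and proteases at day 0 and for the mediators over the days. The pathway genes named are thus a choice and follow no fixed rank. Alternatives were other scalings (DESeq2-type size factors, total counts), no filter, DESeq2 1.42.0, the replicate number as a block, other libraries in the fit, the index as covariate, and leaving out libraries. Exon overlaps were taken from the GENCODE annotation and promoters from RefSeq (GRCm38.p6).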

Additional observations from a re-analysis of the deposited data

Results flagged for a closer look

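In 8 of 101 groups of 4 libraries with at least 20 counts, 1 library stood apart from the other 3 by a gap too large for a group of 4 (Dixon's criterion at 95%), where chance gives about 1 in 20 (5.0 groups). At day 6, among IL-13 libraries, Sema6b was lowest in library 1 (1.48 CPM, the others 2.01 to 2.10), Sema6c highest in library 3 (2.07 CPM, the others 1.67 to 1.69) and Sema6d lowest in library 3 (29.0 CPM, the others 35.1 to 35.8). At day 0, among IL-13 libraries, Sema3b (9.07 CPM, the others 8.25 to 8.39) and Sema4c (19.1 CPM, the others 17.0 to 17.3) were highest in library 4. At day 0, among untreated libraries, Plxna2 (50.3 CPM, the others 61.4 to 63.3) and Sema4g (5.18 CPM, the others 6.199 to 6.37) were lowest in library 3, and Sema6b was highest in library 4 (1.87 CPM, the others 0.678 to 0.806). Without untreated library 4, which held that Sema6b value, Sema6b stayed called higher at day 6 in untreated cells.

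The IL-13 effect differed between the days in 9 members by the interaction test, of 27 tested. The values, day 6 minus day 0 on the log2 scale, were -1.39 for Sema3f, -0.61 for Sema3b, -0.46 for Sema4b, -1.87 for Plxnc1, -0.79 for Plxnd1, -0.70 for Nrp1, 0.62 for Sema5a, 0.38 for Sema6d and 1.09 for Nrp2. For Sema3a (0.41, adjusted p = 0.0879) and Plxna2 (0.35, adjusted p = 0.0980) the difference did not pass the threshold.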

How the results depend on the processing

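Of 89 gene results that were called in a comparison or an alternative, or had an unadjusted p under 0.05, 62 kept their direction and side of the threshold in every alternative run. Among 1522 pairs of result and alternative, 1409 kept the call, 80 lost it, 31 gained one and 2 changed sign. The sign changes were of uncalled values with the nuclear index as a covariate, Sema5a with IL-13 at day 6 (0.0893) and Plxna2 over the days in untreated cells (-0.0731). Calls were gained most often for Plxnd1 over the days in untreated cells (7 of 16 alternatives) and for Plxna2 (7 of 23) and Sema3a (6 of 23) in the interaction. With the nuclear index as a covariate the members called with IL-13 at day 0 fell to 9 (928 of all genes, against 5881), and every other alternative gave 17 to 19, against 19. At day 6 the count was 1 (809 of all genes). It was 3 with total count scaling (1085 of all genes), 4 with the replicate block (2812; Plxna3, Sema4c with adjusted p = 0.0110, Sema5a with 0.0257 and Sema7a with 0.0471), 2 with all 16 libraries in 1 fit (1405), 0 without the untreated libraries with most nuclear RNA (2), 0 with the covariate (0), and 0 to 2 leaving out 1 library at a time (60 to 2328). DESeq2 gave 1436 of all genes. The interaction gave 5 members without the untreated libraries with most nuclear RNA (545 of all genes, against 1061), and with the block and the covariate 1608 and 2129 of all genes. It gave 6 to 10 members leaving out 1 library and 8 to 11 otherwise, against 9. Day effects gave 22 to 25 members in untreated and 24 to 26 in IL-13 cells. The index difference at day 0 was -0.533 to -0.367 leaving out 1 library. Without any single IL-13 library its exact permutation p over 35 arrangements was 0.0571, and thus above 0.05. The causes of all these shifts were not tested. Total count scaling moved the median of all genes to -0.13 at day 0. Same-numbered libraries deviated together with correlations of 0.139, -0.043, 0.180 and 0.073 at day 0 and 0.197, 0.006, 0.171 and 0.215 at day 6, not every library correlated best with its own number, and the numbers were not taken as pairs. With the block, 19 members were called at day 0, 24 and 25 over the days in IL-13 and untreated cells, and 11 in the interaction. Depth limits the 4 members under 10 counts and Plxna4, Plxnb1, Plxnc1 and Flt1 at day 6.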
